A study of Homo sapiens with 18 samples.

Results

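The thyroid lineage transcription factors PAX8, NKX2-1, FOXE1 and HHEX were followed through repeated washing and re-labelling of the same hybridized RNA. The 4 genes were represented by 14 of the 54675 probe sets of the HG-U133 Plus 2.0 array: 8 for PAX8 and 2 each for NKX2-1, FOXE1 and HHEX. A probe set was taken when one of these symbols was the single gene symbol given to it in the platform annotation, with no use of its signal. Probe sets of the antisense genes PAX8-AS1 and NKX2-1-AS1 carry other symbols and were not included.

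The RNA came from FTC-133 cells, a line derived from a human follicular thyroid carcinoma, and the study's text names no treatment of them. Aliquots of this 1 RNA sample were hybridized to 3 arrays, which are called A, B and C. Array A was first stained without stringent washing and scanned after 0, 2, 7 and 17 additional stringent cycles (A1 to A4), array B had 2 stringent cycles before staining and was then scanned at the same 4 steps (B1 to B4), and array C had the standard 6 stringent cycles before staining and a single scan (C1), and these 9 scans form the first series. All arrays were then stained a second time and put through the same steps (A5 to A8, B5 to B8 and C2), which gave 18 scans. By then array A had 17 to 34 cycles in total, array B 21 to 38 and array C 12, so that between scans of the same step second staining and total washing cannot be told apart. Scans A5 and A4 share a total of 17 cycles and differ in the staining. A single line under a single condition was measured, so no level could be set against normal thyroid or another cell type. The scans share one RNA, and the p-values below reflect technical variation of the measurement alone, seen on 2 or 3 arrays.

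Thyroid follicular cells, which make thyroid hormone, arise from a patch of foregut endoderm whose precursors carry these 4 factors together. PAX8 is a paired-box factor and NKX2-1 (also called TTF-1) a homeodomain factor, and both act on the genes of thyroglobulin and thyroid peroxidase. FOXE1 (TTF-2) is a forkhead factor that acts on the same genes and is needed in mice for the thyroid bud to migrate, and HHEX is a homeodomain factor, mostly a repressor, that maintains the precursors in mice. Outside the thyroid PAX8 is found in kidney and the female genital tract, NKX2-1 in lung and forebrain, and HHEX in liver and blood cell precursors.

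The values are MAS5 signals, which combine the perfect-match and mismatch probes of a probe set into 1 number on a linear scale, and each scan had been scaled to about the same trimmed mean. A loss or gain shared by all probe sets is thereby removed, and the median signal of a scan, which moved with washing, lay between 51.0 (C1) and 136.2 (A1). Where a rank is given it places a probe set among all 54675 signals of its own scan. It compares signals and not amounts of transcript, since probe sets differ in how strongly they bind.

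One probe set of PAX8 and one of NKX2-1 stayed among the brighter signals of every scan, those of HHEX lay in the upper middle, and those of FOXE1 lay mostly below the median of their scan. PAX8 121_at had ranks of 89.14 to 94.42 (median 91.63) and NKX2-1 211024_s_at had ranks of 87.34 to 92.62 (median 89.95) on a scale of 0 to 100. Their ranks overlapped, so that these neighbours could not be put in an order. Next came NKX2-1 210673_x_at and HHEX 204689_at with median ranks of 72.79 and 72.42, PAX8 221990_at and 209552_at with 69.70 and 69.65, and HHEX 215933_s_at with 61.45. The ranges of these 5 overlapped as well. PAX8 214528_s_at had a median rank of 50.35, and below it lay PAX8 207923_x_at (41.15), FOXE1 206912_at (40.60), PAX8 207924_x_at (36.58), PAX8 207921_x_at (28.49) and PAX8 213917_at (26.31). FOXE1 208239_at was dimmest in this order, with a median rank of 8.26 and a range of 1.49 to 59.37.

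**Figure D1:**
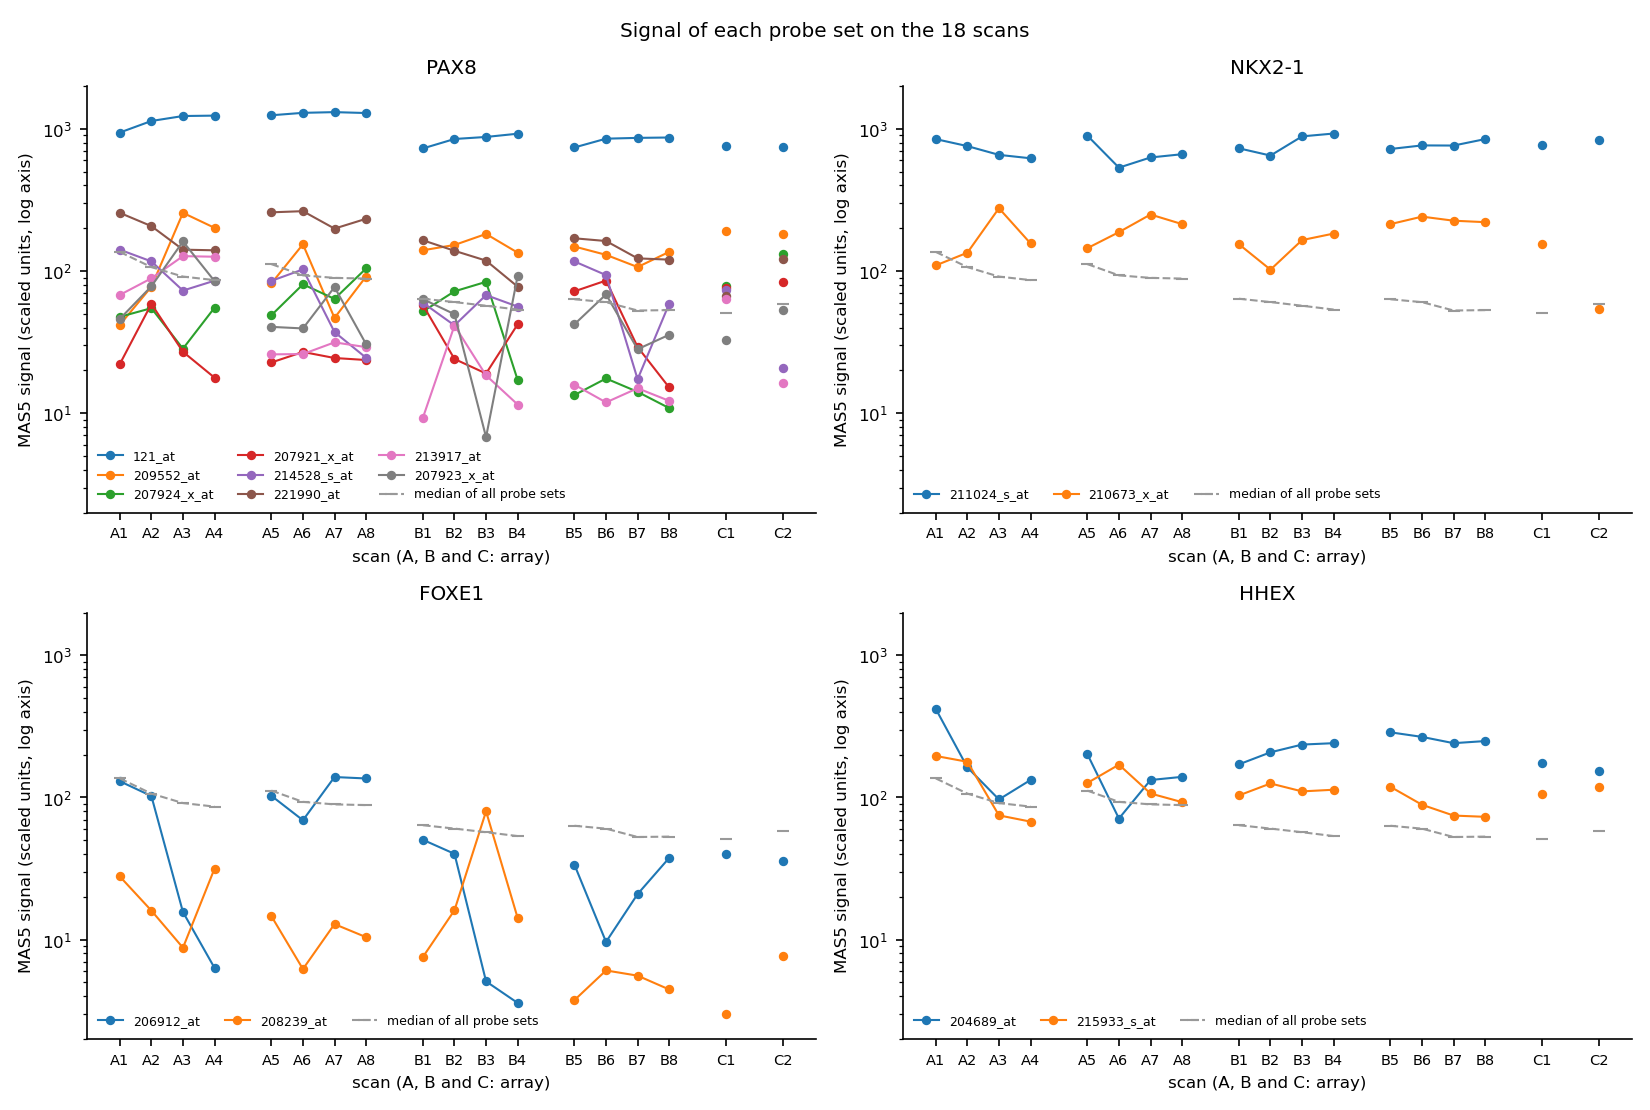
MAS5 signal (scaled units, log axis) of the 14 probe sets on the 18 scans, 1 panel per gene, with lines joining consecutive scans of 1 array and series and dashes marking the median of all probe sets on each scan. PAX8 121_at stayed between 727.9 and 1310 and NKX2-1 211024_s_at between 533.1 and 926.3, while FOXE1 206912_at was at 6.33 on A4 and 3.59 on B4.

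PAX8 121_at had higher scaled signals after 17 additional cycles than before them on both arrays and in both series. On array A its signal was 941.3, 1135, 1230 and 1238 on scans A1 to A4, and 1245, 1295, 1310 and 1291 on scans A5 to A8. On array B it was 727.9, 847.9, 876.4 and 923.6 on B1 to B4, and 739.4, 852.3, 863.4 and 868.6 on B5 to B8. Array C gave 749.6 on C2 and 757.4 on C1. Every scan of array A lay above every scan of array B, and the scans of array C lay within the range of array B. The scan medians of all probe sets were likewise higher on array A (86.3 to 136.2) than on array B (52.74 to 63.82). As a ratio to the scan median, PAX8 121_at was at 6.91 (A1) to 14.64 (A7) on array A and 11.4 (B1) to 17.25 (B4) on array B. How many of all probe sets separate by array or series, here and below, was not computed.

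From 0 to 17 additional cycles PAX8 121_at changed by 0.14 on the log2 scale in the second series (SE 0.18, limma adjusted p = 0.716) and by 0.37 in the first (SE 0.26, adjusted p = 0.489). Neither passed the threshold of 0.05. The median of all probe sets changed by -0.61 (array A) and -0.27 (array B) over the same cycles of the first series, so that relative to it this probe set stood 1.01 higher on A and 0.61 higher on B. The sign depended on the scale. With each scan anchored on the 100 probe sets brightest on C1, which takes the loss of those to be none, 59.6% of its signal remained on array A and 59.8% on array B in the second series, and 50.7% and 50.2% in the first. On that scale its change was -0.74 in the second series and -0.99 in the first (adjusted p = 0.0486 and 0.031). The study's text describes scanner saturation of some probes after the second staining, and its part in values anchored on the brightest probe sets was not tested.

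The other 7 PAX8 probe sets were dimmer and did not follow 121_at. PAX8 221990_at had 256.4, 206.8, 141.3 and 139.8 on A1 to A4 and 164.5, 138.7, 118.3 and 77.6 on B1 to B4. In the second series it had 258.6, 263.5, 198.7 and 232.9 on A5 to A8 and 169.8, 162.5, 122.7 and 120.2 on B5 to B8, and array C gave 120.6 on C2 and 66.7 on C1. Both arrays had lower values after 17 additional cycles than before them in each series. The change was -0.32 in the second series (SE 0.19, limma adjusted p = 0.465) and -0.98 in the first (SE 0.29, adjusted p = 0.235). Anchored on the 100 brightest probe sets, 51.7% of this signal remained on array A and 36.0% on array B in the second series, and 21.0% and 18.6% in the first (adjusted p = 0.0299 and 0.0161).

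PAX8 213917_at separated the series on array A. It had 67.9, 88.8, 127.2 and 126.0 on A1 to A4, and 25.9, 26.1, 31.5 and 29.1 on A5 to A8, so that the 4 values of the second series all lay below those of the first. These second-series signals were low in their scans, at ranks of 15.85 (A5) to 27.66 (A7). On array B it had 9.30, 41.3, 18.4 and 11.5 on B1 to B4, and 15.8, 11.9, 14.98 and 12.2 on B5 to B8, and there the series overlapped. Array C gave 16.3 on C2 and 63.1 on C1.

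PAX8 209552_at had its widest values on array A, with 41.8, 77.5, 256.5 and 201.2 on A1 to A4 and 81.8, 154.1, 46.7 and 91.5 on A5 to A8. On array B it stayed at 106.6 to 148.6 in the second series and at 134.6 to 182.2 in the first, and array C gave 182.9 on C2 and 192.5 on C1. Over the first series its change was 2.27 (array A) and -0.06 (array B), so that the mean of 1.11 (SE 0.69, limma adjusted p = 0.445) came from array A alone.

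PAX8 214528_s_at, a probe set matching several transcripts, had lower signals after 17 additional cycles on both arrays in both series. It had 141.2, 116.8, 72.8 and 85.5 on A1 to A4 and 59.8, 41.4, 67.7 and 56.2 on B1 to B4. In the second series it had 85.2, 102.6, 37.2 and 24.5 on A5 to A8 and 116.7, 93.6, 17.3 and 58.9 on B5 to B8. The change was -1.39 in the second series (limma adjusted p = 0.373) and -0.41 in the first (adjusted p = 0.642), and neither passed.

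The 3 PAX8 probe sets whose names end in x_at, which can also bind other transcripts, varied without a direction shared by both arrays and series. PAX8 207924_x_at ranged from 10.9 (B8) to 132.2 (C2), and on array B it had 10.9 to 17.5 in the second series, against 17.1 to 83.9 in the first, with a narrow overlap. PAX8 207921_x_at ranged from 15.2 (B8) to 85.7 (B6). PAX8 207923_x_at ranged from 6.79 (B3) to 161.3 (A3), and its single lowest value stood between 49.7 on B2 and 92.2 on B4.

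NKX2-1 211024_s_at was bright on all scans and had opposite signs of change on the arrays. On array A it had 846.3, 755.7, 655.8 and 620.4 on A1 to A4, and 895.6, 533.1, 628.6 and 662.6 on A5 to A8. On array B it had 729.1, 648.4, 884.6 and 926.3 on B1 to B4, and 721.2, 764.2, 762.5 and 846.7 on B5 to B8. Array C gave 838.9 on C2 and 765.9 on C1, and the ranges of all 3 arrays overlapped.

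From 0 to 17 additional cycles NKX2-1 211024_s_at changed by -0.43 on array A and 0.23 on array B in the second series, and by -0.45 on A and 0.35 on B in the first. The mean change was therefore near 0 in both, at -0.10 in the second (SE 0.27, limma adjusted p = 0.872) and -0.05 in the first (SE 0.35, adjusted p = 0.949). Anchored on the 100 brightest probe sets it was -0.99 in the second series and -1.41 in the first (adjusted p = 0.0443 and 0.0301), with 42.5% of the signal remaining on array A and 59.7% on array B in the second, and 28.3% and 50.2% in the first.

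NKX2-1 210673_x_at had higher scaled signals after 17 additional cycles than before them on both arrays and in both series. It had 109.5, 134.5, 276.4 and 156.3 on A1 to A4 and 154.3, 102.2, 165.0 and 183.3 on B1 to B4. In the second series it had 144.7, 187.6, 249.6 and 213.7 on A5 to A8 and 213.7, 241.2, 225.8 and 220.5 on B5 to B8, and array C gave 54.0 on C2, its lowest value, and 155.7 on C1. The change was 0.30 in the second series (SE 0.25, limma adjusted p = 0.582) and 0.38 in the first (SE 0.41, adjusted p = 0.643). With anchoring both became negative, at -0.58 and -0.98 (adjusted p = 0.175 and 0.0931).

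FOXE1 206912_at had the largest change of the 14 probe sets over the first series. In the first series it had 130.1, 102.4, 15.7 and 6.33 on A1 to A4, and 50.4, 40.2, 5.09 and 3.59 on B1 to B4, so that on both arrays the scans after 7 and 17 additional cycles lay below those after 0 and 2. After the second staining it stood at 102.8 on A5, against 6.33 on A4, and at 33.6 on B5, against 3.59 on B4. The signals on A4 and B4 were near the lower end of their scans and were not shown to lie above background. Those on A3 and B3 were low as well, at ranks of 14.48 and 6.69. The log2 changes given below that use these scans are therefore uncertain in size.

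The second series did not repeat this course. FOXE1 206912_at had 102.8, 69.2, 139.3 and 136.1 on A5 to A8, and 33.6, 9.65, 20.9 and 37.6 on B5 to B8, with its lowest value after 2 additional cycles on both arrays. Array C gave 35.9 on C2 and 39.9 on C1. The rank of this probe set varied between scans around a median of 40.60. It was at 62.34 on A8, 41.56 on B8 and 14.42 on B6, and at 4.17 on A4 and 4.92 on B4.

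Over 17 additional cycles FOXE1 206912_at changed by 0.28 in the second series (SE 0.39, limma adjusted p = 0.747). The first-series changes were -4.36 (array A) and -3.81 (array B), a mean of -4.09 (SE 0.32), where the median of all probe sets was -0.45. The limma adjusted p of this change was 0.192, and its unadjusted p of 7.44e-05 ranked 6 among 54675. The difference between the series was 4.37 (SE 0.51), with an unadjusted p of 2.99e-05 that ranked 4 and an adjusted p of 0.334. When an offset of 16 was added before taking logs, the difference was 2.47 (adjusted p = 0.580) and the first-series change -2.24 (adjusted p = 0.158). With a variance trend and robust moderation in limma, both the difference between series and the first-series change passed (adjusted p = 0.0265 and 0.0129). Over the alternatives the adjusted p of the difference ran from 0.0265 to 1 and that of the first-series change from 0.0129 to 0.866.

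FOXE1 208239_at was near the bottom of the signal range apart from single scans. It had 27.8, 16.02, 8.78 and 31.6 on A1 to A4 and 7.56, 16.1, 79.9 and 14.2 on B1 to B4. In the second series it had 14.7, 6.22, 12.9 and 10.4 on A5 to A8 and 3.76, 6.08, 5.59 and 4.47 on B5 to B8, and array C gave 7.72 on C2 and 3.02 on C1. On array B the second series lay below the first at all 4 steps. The probe sets of FOXE1 did not move together: on B3, where 208239_at was at its highest, 206912_at stood at 5.09.

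HHEX 204689_at depended on the array. It had 419.5, 162.9, 96.9 and 132.8 on A1 to A4, and 171.0, 207.9, 235.6 and 241.0 on B1 to B4. Over 17 additional cycles array A differed by -1.66 and array B by 0.50, a mean of -0.58 (SE 0.69, limma adjusted p = 0.672). The value of 419.5 on A1, the scan before any stringent washing, was its highest of the 18.

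In the second series HHEX 204689_at had 201.8, 71.1, 132.7 and 139.7 on A5 to A8 and 287.3, 266.8, 241.0 and 249.4 on B5 to B8, and array C gave 153.6 on C2 and 176.1 on C1. Apart from A1 and A5, the first scans of their series, all values of array A were below all values of array B. The change was -0.37 (SE 0.39, limma adjusted p = 0.669) and had the same sign on both arrays.

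HHEX 215933_s_at had 195.9, 178.3, 74.9 and 67.7 on A1 to A4 and stayed at 103.4 to 125.5 on B1 to B4. In the second series it had 126.5, 170.2, 106.7 and 92.8 on A5 to A8 and 118.9, 88.9, 74.6 and 73.1 on B5 to B8, with 117.7 on C2 and 105.0 on C1. The change was -0.57 in the second series (SE 0.27, limma adjusted p = 0.391), and in the first array A changed by -1.53 and array B by 0.13 (mean -0.70, adjusted p = 0.511). Both HHEX probe sets were thus lower after 17 additional cycles on both arrays in the second series, and lower on array A and higher on array B in the first, and none of these changes passed.

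Across the 4 genes, 0 of the 14 probe sets passed the test of washing in the second series, where 0% of all 54675 probe sets did. The first series again gave 0 of 14 beside 0% of all, and for the difference between the series 0 of 14 beside 0% of all. At an unadjusted p under 0.05, 1395 of all probe sets were higher and 6358 lower in the second series, 1914 higher and 7573 lower in the first, and 2686 higher and 1408 lower in the difference, with 0, 2 and 1 of the 14 among them. The signs of the 14 changes were mixed, with 5 positive in the second series and 6 in the first. Their median was -0.11 in the second series, against -0.24 over all probe sets, and 8 of the 14 lay above that value. The first-series median was -0.22, against -0.45 over all, and 9 of the 14 lay above it.

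Anchored on the 100 brightest probe sets, 6 of 14 passed as lower in the second series, where 42.8% of all probe sets did. These were PAX8 121_at, 214528_s_at, 221990_at and 213917_at, NKX2-1 211024_s_at and HHEX 215933_s_at. The first series gave 6 of 14, beside 54.6% of all, with FOXE1 206912_at in place of PAX8 213917_at. Neither share of the 14 stood clearly above that of all probe sets. With a variance trend and robust moderation 1 of 14 passed in the difference between series beside 1.42% of all, and 1 of 14 in the first series beside 4.78%, FOXE1 206912_at in both.

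**Figure D2:**
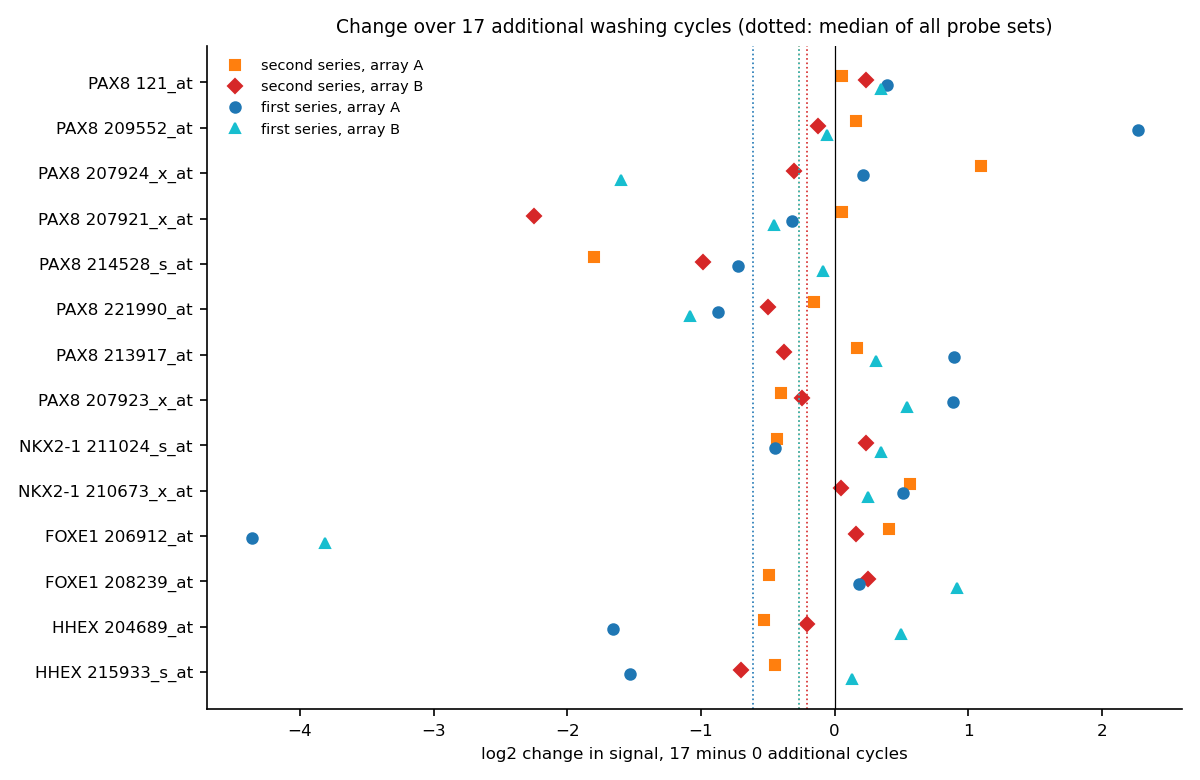
Change in log2 signal from 0 to 17 additional washing cycles for each of the 14 probe sets, with a square for array A and a diamond for array B in the second series and a circle for array A and a triangle for array B in the first, and dotted lines at the median of all probe sets in each case. FOXE1 206912_at lies at 0.40 and 0.16 in the second series and at -4.36 and -3.81 in the first.

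Re-labelling compared each scan of the second series with the scan of the same array and step in the first, which gave 9 pairs. They came from 3 arrays, so that pairs of 1 array are not independent. With the array as the unit 0 of all probe sets passed. Of the 14 probe sets, 0 passed, where 0.836% of all probe sets did (161 higher and 296 lower), and 3 of 14 had an unadjusted p under 0.05, beside 4558 of all 54675 that were higher and 6172 lower at that p. PAX8 221990_at was higher in the second series in 9 of 9 pairs, by 0.01 to 0.85 with a mean of 0.38 (SE 0.13, limma adjusted p = 0.161). Over the alternatives its limma adjusted p ran from 0.0156 to 0.790. PAX8 213917_at was lower in 7 of 9 pairs, with a mean of -1.16 (SE 0.33, adjusted p = 0.110), and without array A the mean was -0.64. FOXE1 208239_at was lower in 7 of 9 pairs, with a mean of -1.10 (SE 0.45, adjusted p = 0.216), and without array B the mean was -0.40.

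FOXE1 206912_at was higher in 4 of the 9 pairs, those after 7 and 17 additional cycles of arrays A and B. The log2 differences were 3.16 for A7 against A3, 4.43 for A8 against A4, 2.04 for B7 against B3 and 3.39 for B8 against B4. Each was taken against a low first-series signal, so that its size is uncertain. In the other 5 pairs FOXE1 206912_at was lower in the second series, with differences of -0.15 (C2 against C1) to -2.06 (B6 against B2). The mean of 1.04 (SE 0.68, limma adjusted p = 0.427) thus joined pairs of opposite sign, and without array A it was 0.53 (adjusted p = 0.759).

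The mean differences in scaled signal of the brightest probe set of PAX8, NKX2-1 and HHEX were near 0. The study reports that the second staining markedly raised the intensity of the arrays, and scaling each scan removes such a shared gain. PAX8 121_at differed by 0.07 (SE 0.10, limma adjusted p = 0.725), with pairs between -0.09 and 0.40, and without array A the mean was -0.02. NKX2-1 211024_s_at differed by -0.04 (SE 0.11, adjusted p = 0.866), with pairs between -0.50 and 0.24. HHEX 204689_at differed by -0.08 (SE 0.22, adjusted p = 0.866), with 6 of 9 pairs higher. Its pairs spread more widely, between -1.20 and 0.75, and with 1 array left out its mean ran from -0.38 to 0.20. Anchored on the 100 brightest probe sets, 2 of 14 passed as higher, PAX8 121_at at 0.50 (adjusted p = 0.0168) and PAX8 221990_at at 0.80 (adjusted p = 0.0156), where 20.1% of all probe sets did. The part of scanner saturation among the anchoring probe sets in this result was not tested.

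**Figure D3:**
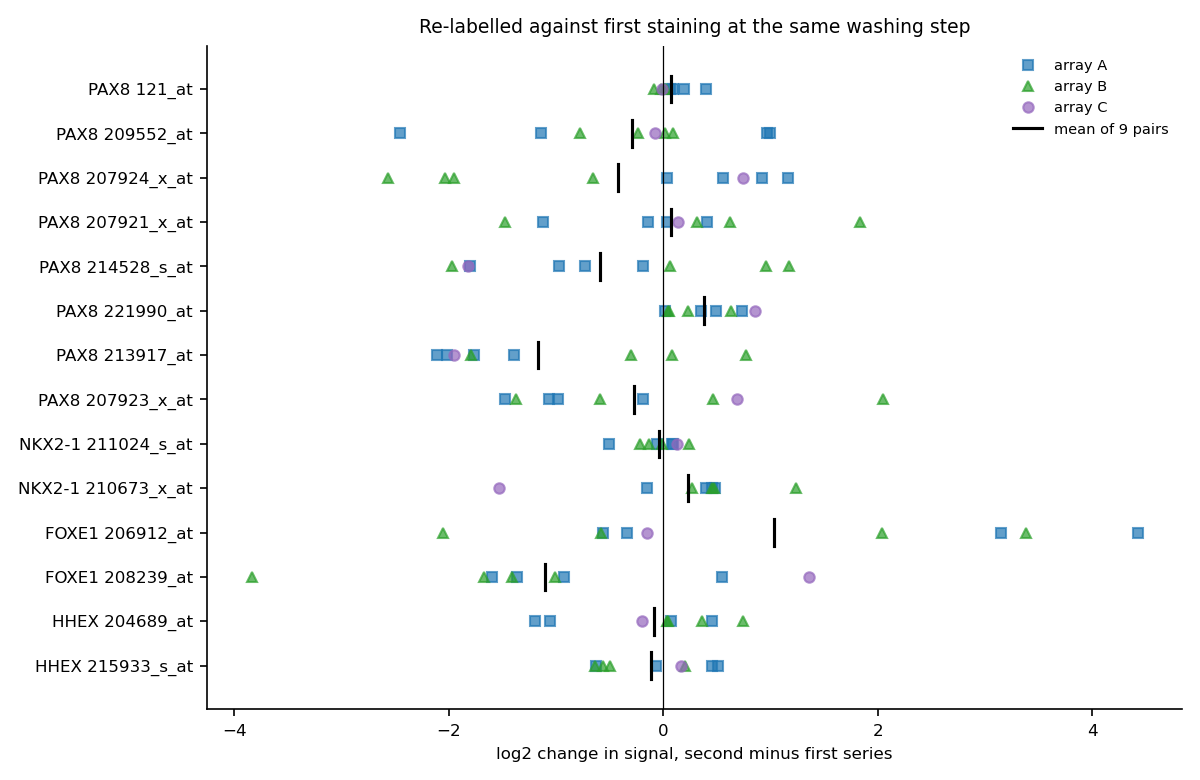
Change in log2 signal at the same washing step, second minus first series, for each probe set, with a square, triangle or circle for each pair of array A, B or C and a bar at the mean of the 9 pairs. PAX8 221990_at lies above 0 in 9 of 9 pairs, and the pairs of FOXE1 206912_at run from -2.06 to 4.43.

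The brightest of the 14 probe sets varied least between scans of 1 array. The SD of log2 signal within arrays A and B was 0.14 for PAX8 121_at, which only 1.57% of all probe sets undercut, and 0.21 for NKX2-1 211024_s_at (7.31%). It was 0.56 for HHEX 204689_at and 0.47 for HHEX 215933_s_at, against a median of 0.73 over all probe sets. The other PAX8 probe sets had an SD of 0.37 (221990_at) to 0.99 (207923_x_at). The highest were 1.16 for FOXE1 208239_at and 1.57 for FOXE1 206912_at, above 98.8% of all probe sets. This SD includes the change over washing itself.

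**Figure D4:**
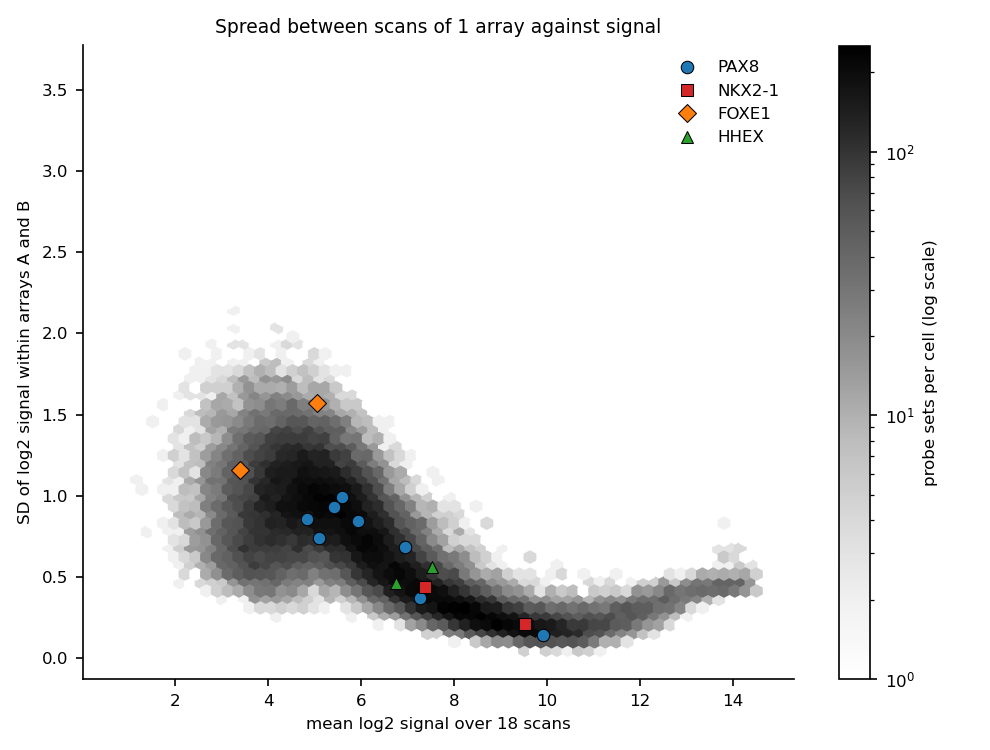
SD of log2 signal between scans of 1 array (arrays A and B) against mean log2 signal over the 18 scans, with all probe sets as grey cells shaded by their number (log scale) and the 14 probe sets as coloured symbols. PAX8 121_at and NKX2-1 211024_s_at lie at 0.14 and 0.21, and FOXE1 206912_at at 1.57, near the upper edge.

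Probe sets of the same gene did not share a pattern across the 18 scans. Pearson's r of log2 signal, given as a description since the scans share RNA, arrays and scaling, was -0.27 between the probe sets of NKX2-1, -0.22 between those of FOXE1 and 0.10 between those of HHEX. For PAX8, 121_at had r of -0.55 (207921_x_at) to 0.56 (221990_at) with the other 7.

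The probe sets of other genes most like the brightest member of each gene were sought among 22712 probe sets with 1 symbol and a mean above the median. All scans carry 1 RNA, so that r compares courses over arrays, washing and staining and not expression between samples. The genes named have the highest r among these candidates and are given as a description. PAX8 121_at was most like IGH (immunoglobulin heavy chain, r = 0.956), SPATA24 (0.952) and GPSM1 (0.950), and 29 candidates had r above 0.9. NKX2-1 211024_s_at was most like C3orf33 (0.783), ACTA2 (a smooth muscle actin, 0.756) and TGFBR2 (a receptor of TGF-beta, 0.744). FOXE1 206912_at was most like SENP1 (a SUMO protease, 0.890), ARHGAP18 (0.878) and ZNF107 (0.878), and HHEX 204689_at most like MTRF1 (a mitochondrial release factor, 0.874), TACC2 (0.829) and UBL7-DT (0.814).

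Of 14 thyroid genes that these factors act on or that mark differentiated follicular cells, 12 were measured, each by the probe set brightest on scan C1. Of these, 2 lay above the median signal of that scan. They were DIO2, a deiodinase that activates thyroid hormone, at 128.5, and SLC5A5, the sodium iodide symporter, at 87.7. DUOX2, which makes the hydrogen peroxide for hormone synthesis, followed at 41.6, TG (thyroglobulin) at 40.7 and TSHR, the receptor of thyrotropin, at 38.9, all under the median of 51.0. Counts above this median, here and for the lists and markers below, are descriptions only. Taking the brightest probe set of a gene on C1 favours such counts, and the share of all genes above the median was not computed. In each of the 4 comparisons 0 of the 12 passed in either direction. Of all probe sets 0% passed in washing of either series and in the difference, and 0.836% in re-labelling. The median change of the 12 over 17 additional cycles was -0.81 in the second series and -0.76 in the first, against -0.15 and -0.27 over 19775 genes. Those genes were not matched to the 12 for signal, and most of the 12 were dim. The study reports that washing took a larger relative part of the intensity from dim probes than from bright ones. The part of signal level in this gap was not tested.

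Of 12 cofactors and further regulators of thyroid development, 11 were measured and 7 lay above the median on C1. WWTR1 (TAZ), a co-activator of PAX8 and NKX2-1, had 2075 on C1 and 1463 to 2816 over all scans. RB1, the retinoblastoma protein, had 1876 and at most 3612, and GLIS3, a zinc finger factor needed for thyroid hormone synthesis, had 444.0. In each comparison 0 of the 11 passed, beside 0% of all probe sets in washing and its difference between series and 0.836% in re-labelling. Their median changes over washing were -0.07 in the second series and -0.23 in the first.

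Of 21 close relatives of the factors, 18 were measured and 8 lay above the median on C1. FOXD1, a forkhead factor of kidney stroma, had 1418, FOXL1, a forkhead factor of gut mesenchyme, 225.2, and PAX9, a paired-box factor of pharyngeal pouches and teeth, 148.9. Over washing 0 of the 18 passed in either series, and 0 in the difference between series, beside 0% of all probe sets in each. In re-labelling 1 passed, PAX6, a paired-box factor of eye and pancreas, which fell by 1.64 on the log2 scale in the second series (limma adjusted p = 0.0382), chosen for mention after its values were seen. That is 1 of 18 beside 0.836% of all probe sets, and with the array as the unit or without array B the test called 0 of 54675, PAX6 included.

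Of the markers of the labelled cell type, 1 of 3 lay above the median of C1. Of 4 follicular cell markers 3 were measured (TG, TSHR and SLC5A5), and their summed signal ran from 99.7 (B8) to 680.2 (A1). Of 4 epithelial markers 4 were measured, with sums of 1574 (B1) to 2332 (B8), and 3 of them lay above the median of C1. KRT18 had 1408, KRT8 514.1 and EPCAM 214.3 on that scan, while CDH1 had 32.3, under the median of 51.0. Among the 3 markers of parafollicular C cells, CALCB had 403.0 and CALCA 308.7, while CHGA had 8.76, and the sums ran from 391.0 (A1) to 861.6 (B1).

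Lung, kidney, liver and leukocytes, which share one or another of the factors with the thyroid, were each represented by a few markers, of which 2 of 4 for lung, 2 of 2 for kidney, 1 of 4 for liver and 0 of 3 for leukocytes lay above the median of C1. The sums were 299.6 (C2) to 1339 (A1) for 4 lung markers, led by SFTPB at 150.6 on C1, and 69.7 (A7) to 321.3 (A3) for 2 kidney markers. They were 121.9 (C2) to 529.7 (A2) for 4 liver markers and 22.4 (B5) to 212.3 (A1) for 3 leukocyte markers. In 5 of the 7 marker sums the highest value was on array A, whose scans had the highest medians. The part of other transcripts in the signals of the 14 probe sets was not tested.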

How the data were processed

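Single-colour HG-U133 Plus 2.0 scans were taken of 3 arrays hybridized with 1 RNA sample. The deposited values are signal intensities on a linear scale that the authors had computed with MAS5 (version not given in the sources used here) and scaled per scan, and their trimmed mean (2% left out at each end) lay between 249.94 and 249.98 throughout. No offset or filter was applied, and the lowest signal was 0.114. No 2 scans held identical values (0 identical), and detection calls were not used. Genes were named through the platform annotation, in which 41097 probe sets have 1 symbol, 1801 several and 11777 none. The gene identifiers of the 14 probe sets matched RefSeq, and 0 symbols had to be updated.

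Log2 signals of all 54675 probe sets were fitted with limma 3.58.1 in R 4.3.3 (the data.table package, version 1.17.8, read them), with Benjamini-Hochberg adjustment over all of them and a threshold of 0.05. Washing was 17 against 0 additional cycles in the 8 scans of each series (step as factor, array as block), the difference between series an interaction over 16 scans, and re-labelling the second against the first series in 18 scans with the 9 pairs of array and step as block. The array letter marks the same physical array, so that the pairing comes from the labels. Python 3.11.15 with numpy 2.4.6, pandas 2.3.3, scipy 1.17.1 and matplotlib 3.10.9 gave the descriptive values. The fits were tested on simulated data.

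Every probe set of the 4 genes was named. In addition, for the brightest probe set of each gene on C1 the 3 most correlated genes were named, and from each list the 3 genes brightest on C1. Members and lists were chosen with earlier results of these data known. As alternatives the scans were centred on their medians, quantile normalized or anchored on 100 bright probe sets, 16 was added to each signal, the 27337 brighter probe sets were fitted alone, limma's trended and robust prior was used, the replicate block was dropped, the array was taken as unit, and each array was left out. The number of arrays and the single RNA sample limit the precision. Single probe intensities and probe sequences were not used here.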

Additional observations from a re-analysis of the deposited data

Results flagged for a closer look

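In both results below, arrays A and B had moved in one direction over 17 additional cycles of the second series and in the opposite one in the first. Both were picked from the 14 probe sets by this pattern, and the share of all probe sets with it was not computed. The p-values given here use the values that led to the choice and are descriptions only. FOXE1 206912_at changed by 0.40 on array A and 0.16 on array B in the second series, against -4.36 and -3.81 in the first. The difference of 4.37 on the log2 scale had an adjusted p of 0.334 in limma, and of 0.0265 with a variance trend and robust moderation. PAX8 207923_x_at changed by -0.40 on array A and -0.25 on array B in the second series, against 0.88 and 0.54 in the first. The difference of -1.04 had an adjusted p of 0.918 in limma, and at 7 additional cycles its first-series signals were 161.3 on array A and 6.79 on array B.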

How the results depend on the processing

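No call of a single probe set was lost, since none of the 14 had passed, but scaling decided many signs. Anchored on the 100 brightest probe sets, the second-series change became -0.74 (PAX8 121_at), -0.87 (209552_at), -0.49 (207924_x_at), -0.58 (NKX2-1 210673_x_at) and -0.60 (FOXE1 206912_at). The first-series change became -0.99 (PAX8 121_at), -0.25 (209552_at), -0.76 (213917_at), -0.65 (207923_x_at), -0.98 (NKX2-1 210673_x_at) and -0.81 (FOXE1 208239_at). The difference between series became 0.24 (PAX8 121_at), 0.42 (NKX2-1 211024_s_at) and 0.39 (210673_x_at). Re-labelling became 0.14 (PAX8 209552_at), 0.0037 (207924_x_at), 0.15 (207923_x_at), 0.38 (NKX2-1 211024_s_at), 0.34 (HHEX 204689_at) and 0.31 (215933_s_at).

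With each scan centred on its median, the sign turned in the second series for PAX8 213917_at (0.19), NKX2-1 211024_s_at (0.19) and FOXE1 208239_at (0.17), and in the first for PAX8 207921_x_at (0.071), 214528_s_at (0.049) and NKX2-1 211024_s_at (0.40). It also turned for HHEX 215933_s_at in the difference (-0.035) and NKX2-1 211024_s_at in re-labelling (0.0041). With quantile normalization it turned in the second series for PAX8 213917_at (0.42), 207923_x_at (0.037) and FOXE1 208239_at (0.63), and in the first for PAX8 207924_x_at (0.049), 207921_x_at (0.77) and 214528_s_at (0.044). It also turned in the difference for NKX2-1 211024_s_at (0.0076) and HHEX 215933_s_at (-0.012). With the array as the unit (replicate block) re-labelling was 0.0012 for NKX2-1 211024_s_at and -0.21 for 210673_x_at. An offset of 16 turned no sign and changed no call of the 14, and the brighter probe sets alone, among which 8 of the 14 were fitted, turned none and changed no call of those 8. The cause of these changes was not tested.

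The number of probe sets passing in the second series was 0, 23406 with anchoring and 1546 with a variance trend. For the first series it was 0, 29877 with anchoring, 705 among the brighter probe sets and 2615 with a variance trend, and for the difference 0 and 778 with a variance trend. For re-labelling it was 457, 11521 with anchoring, 967 with an offset, 245 among the brighter probe sets, 1834 with a variance trend, 123 with no replicate block, 0 with the array as the unit (replicate block), and 0 to 735 when 1 array was left out. With no replicate block the counts of washing and of the difference stayed at 0.

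With 1 array left out of the washing fits the change is a value without a test. Ranges that crossed 0 were, in the second series, -0.12 to 0.16 (PAX8 209552_at), -0.31 to 1.09 (207924_x_at), -2.25 to 0.058 (207921_x_at), -0.38 to 0.17 (213917_at), -0.43 to 0.23 (NKX2-1 211024_s_at) and -0.49 to 0.25 (FOXE1 208239_at). In the first series they were -0.055 to 2.27 (PAX8 209552_at), -1.60 to 0.21 (207924_x_at), -0.45 to 0.35 (NKX2-1 211024_s_at), -1.66 to 0.50 (HHEX 204689_at) and -1.53 to 0.13 (215933_s_at). For the difference they were -1.79 to 0.37 (PAX8 207921_x_at), -0.11 to 0.013 (NKX2-1 211024_s_at), -0.20 to 0.0496 (210673_x_at), -0.70 to 1.13 (HHEX 204689_at) and -0.83 to 1.09 (215933_s_at). In re-labelling they were -0.019 to 0.15 (PAX8 121_at), -1.29 to 0.68 (207924_x_at), -0.14 to 0.29 (207921_x_at), -0.60 to 0.25 (207923_x_at), -0.064 to 0.0018 (NKX2-1 211024_s_at), -0.069 to 0.45 (210673_x_at), -0.38 to 0.20 (HHEX 204689_at) and -0.27 to 0.087 (215933_s_at).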

Other observations

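Before washing was extended, the first scans of the 3 arrays already differed in the number of stringent cycles before staining, which was 6 for array C, 2 for B and 0 for A. FOXE1 206912_at had 39.9 on C1, 50.4 on B1 and 130.1 on A1, and FOXE1 208239_at had 3.02, 7.56 and 27.8 on the same scans. HHEX 204689_at had 176.1 on C1, 171.0 on B1 and 419.5 on A1. NKX2-1 211024_s_at had 765.9, 729.1 and 846.3 on these scans, and PAX8 121_at 757.4, 727.9 and 941.3. From A1 the median change of all probe sets was -0.84 to B1 and -1.10 to C1 on the log2 scale. Relative to it FOXE1 206912_at stood at -0.53 and -0.61, FOXE1 208239_at at -1.05 and -2.11, and HHEX 204689_at at -0.46 and -0.16. NKX2-1 211024_s_at stood at 0.62 and 0.95, and PAX8 121_at at 0.46 and 0.78. Each array gave 1 such scan, so that no test was made, and array and cycles before staining cannot be told apart.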
